A study of Mus musculus with 12 samples.

Results

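The 48 genes described here encode proteins of the G2 phase and of mitosis. They are a fixed list of names, and each was found among the 27179 genes of the count table by its RefSeq mouse symbol. All 48 were also among the 14473 genes that passed the low-count filter and were tested. The study sequenced total RNA of sorted hematopoietic stem cells from C57BL/6J mice, with 1 library for each of 12 mice. Wild-type mice (group WT) gave the libraries WT2, WT3 and WT4, and Emu-myc transgenic mice (group E) gave E1, E2 and E3. Mice without Casp1 and Casp11, the inflammatory caspases, formed group C (C1, C2 and C3), and Emu-myc mice without both caspases formed group CE (CE1, CE2 and CE3). The Emu enhancer of the immunoglobulin heavy chain locus drives the transgene mainly in the B lineage. The labels give no age, sex, sorting gate or batch. The questions asked were whether the genes differ with the transgene, with loss of both caspases, and with both.

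A cell enters mitosis when cyclin A and cyclin B activate the kinase Cdk1. The spindle then attaches to the kinetochores, and once every chromosome is attached the anaphase-promoting complex (APC/C) marks cyclins and securin for destruction. Transcripts of this program accumulate in G2 and fall in quiescent cells, where the DREAM complex represses their promoters. Activation in cycling cells is the work of B-MYB and FOXM1. Most hematopoietic stem cells of an adult mouse are quiescent, while multipotent and lineage progenitors divide often. A level in sorted bulk RNA therefore mixes cells in and out of the cycle, and fewer dividing cells and less of the transcript per cell cannot be told apart.

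DREAM, B-MYB and FOXM1 bind many of these promoters at the CHR element (cell cycle genes homology region), often a short way downstream of CCAAT boxes. Promoters of 41 of the 48 genes were in the RefSeq table (assembly GRCm38.p6, 250 bases before to 50 after a transcript start), and the letters TTTGAA or TTTAAA were searched on both strands. A CHR match occurred in 33 of 41 (80.5%, Wilson 95% interval 66.0 to 89.8%), against 30.6% of all genes in the table. Within 100 bases before to 50 after the start the shares were 73.2% and 14.7%. The letters CCAAT, also on both strands, occurred in 78.0% of the members and in 41.1% of all genes. A CHR near the start together with a CCAAT box occurred in 27 of 41, or 65.9%, against 5.78% of all genes. In all 27 the last such CHR lay downstream of the first CCAAT box. The wider window for CCAAT favours that order, and its share over all genes was not counted. Mad2l1, Nuf2, Nusap1 and Tacc3 had neither motif in this window.

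The following stretches are the 110 bases before the start in GRCm38.p6, read 5′ to 3′ on the gene's strand. They belong to 5 members that fell with the caspase label, to Cdc20, which did not, and to Mad2l1, which fell and holds neither motif. Capitals mark CCAAT boxes, which read ATTGG when they lie on the other strand, and CHR matches, where TTCAAA is TTTGAA on the other strand.
Ube2c, chr2:164769819-164769928, plus strand: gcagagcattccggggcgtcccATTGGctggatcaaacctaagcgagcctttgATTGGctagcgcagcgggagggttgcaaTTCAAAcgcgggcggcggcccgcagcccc
Cks1b, chr3:89418292-89418401, minus strand: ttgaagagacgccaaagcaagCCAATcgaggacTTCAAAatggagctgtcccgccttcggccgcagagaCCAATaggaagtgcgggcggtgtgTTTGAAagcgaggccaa
Cdk1, chr10:69352913-69353022, minus strand: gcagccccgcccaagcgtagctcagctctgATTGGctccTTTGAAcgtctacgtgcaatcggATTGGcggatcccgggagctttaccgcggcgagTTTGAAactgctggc
Ccnb1, chr13:100786487-100786596, minus strand: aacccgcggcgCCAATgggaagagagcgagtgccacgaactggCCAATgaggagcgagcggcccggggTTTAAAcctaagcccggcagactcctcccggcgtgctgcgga
Cenpa, chr5:30666776-30666885, plus strand: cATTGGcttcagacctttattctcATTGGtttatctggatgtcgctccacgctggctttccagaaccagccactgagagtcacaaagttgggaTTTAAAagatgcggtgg
Cdc20, chr4:118437344-118437453, minus strand: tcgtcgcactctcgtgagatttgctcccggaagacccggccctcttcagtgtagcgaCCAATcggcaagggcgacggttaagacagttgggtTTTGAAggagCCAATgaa
Mad2l1, chr6:66535111-66535220, plus strand: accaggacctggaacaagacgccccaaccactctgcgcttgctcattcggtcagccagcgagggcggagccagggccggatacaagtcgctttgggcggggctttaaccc
The Cdc20 stretch carries a CHR and 2 CCAAT boxes, as the Ube2c stretch does, and Cdc20 was level across the groups while Ube2c fell with the caspase label. Among members with a promoter in the table, a CHR was present in 12 of the 18 that fell with the caspase label and in 21 of the 23 that did not.

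Libraries held 24529611 to 34065910 counts. CPM below are counts scaled to the effective library size, and Casp1 was at 29.8 to 47.8 CPM in WT and E and at 5.1 to 6.76 CPM in C and CE. The counts of Casp4 (the annotation's name for Casp11) and Myc did not settle the other parts of the labels. Y-linked transcripts summed to 91.4 to 121 CPM in the 3 C libraries, CE1 and CE2, and to at most 0.263 CPM in CE3 and all WT and E libraries, so sex and the caspase label nearly coincide in these mice. C1 and C3 had a count for 22900 and 21247 genes, against 17310 to 18863 in the others. WT4 and CE3 had the most extreme scores on the second principal component. Of 12 stem cell genes, 11 were at 1 CPM or more in every library. Kit (364 to 508 CPM), Meis1 (97.7 to 139) and Hlf (66.9 to 144) were among the higher ones. Lower were Mecom (8.91 to 20.3 CPM), Procr (8.28 to 18.4), Fgd5 (5.54 to 13.9), Slamf1 (3.38 to 5.05) and Hoxb5 (0.566 to 1.94). The sorted cells also held Flt3 at 308 to 516 CPM and Mpo, a myeloid progenitor gene, at 5460 to 9050 CPM. Genes of other lineages were present as well. At 1 CPM or more in every library were 6 of 11 erythroid, 8 of 11 B lineage, 8 of 12 neutrophil and macrophage and 2 of 9 T and NK cell genes, among them Car2 (224 to 343 CPM), Cd79b (39.0 to 61.4 CPM) and Nkg7 (129 to 224 CPM). Of their late or defining genes, Hbb-bs, Ms4a1, Cd3e, Cd3d, Cd3g and Ltf were below 1 CPM in every library.

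The mitotic genes were high in WT2 and low in CE3, and group CE had the lowest mean. The mean log2 level of the 48 genes, centred on WT, was 0.26 in WT2, 0.03 in WT3 and -0.29 in WT4. In group E it stood at -0.04 (E1), 0.08 (E2) and -0.02 (E3), and in group C at -0.16 (C1), -0.18 (C2) and -0.19 (C3). The CE libraries stood at -0.23 (CE1), -0.20 (CE2) and -0.54 (CE3). The 3 wild-type mice thus spanned more than any other group, and the C libraries, which lie inside that span, lay below every E library. CE1 and CE2 lay only slightly below C, while CE3 lay far below all others. WT2 was the highest of the 12 libraries for 39 members and CE3 the lowest for 34. The mean of CE was the lowest of the 4 group means for 45 of 48 members, against 26.3% of all genes tested.

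**Figure D1:**
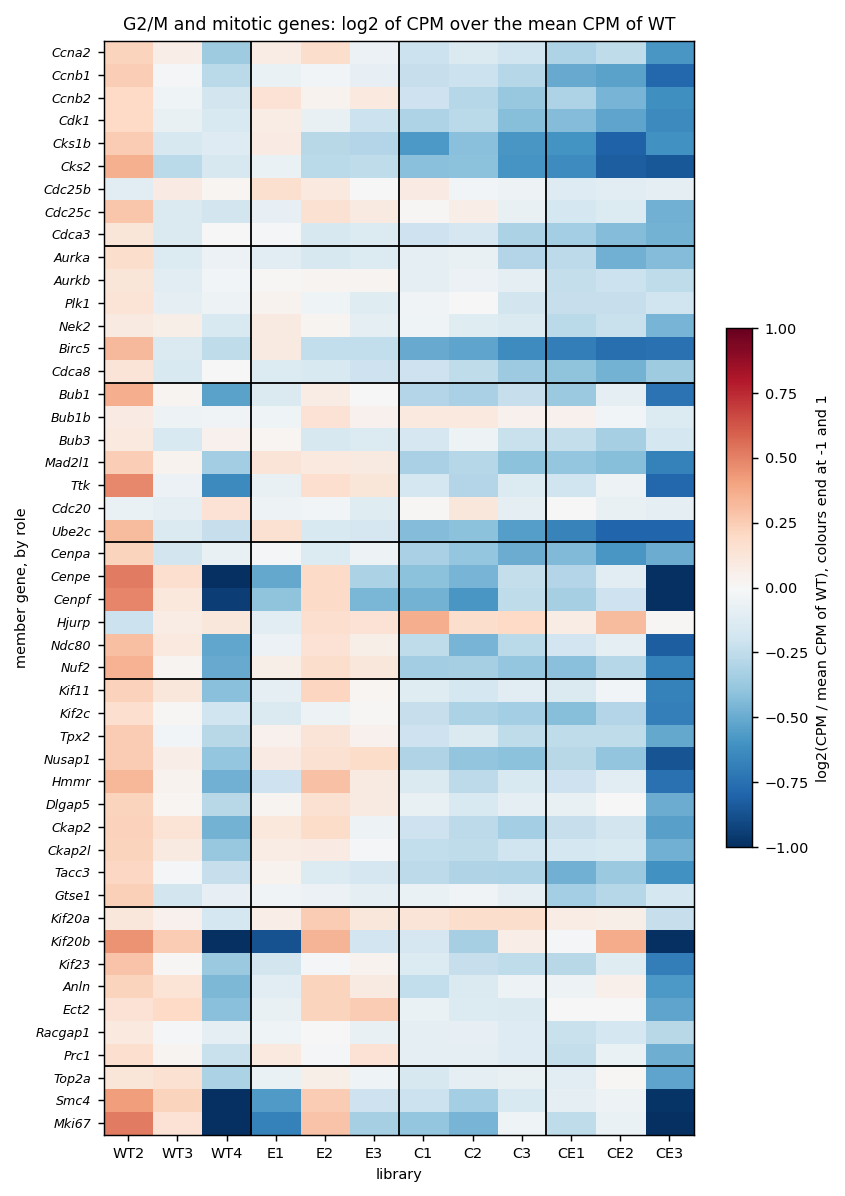
Heat map of the log2 level of each of the 48 genes (rows, by role) in each of the 12 libraries (columns, by group), relative to the mean of WT. The WT2 column is the highest for 39 genes and the CE3 column the lowest for 34, and the level of group C runs from -0.19 to -0.16 as a mean over the rows.

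Per kilobase of the longest annotated transcript, the mean level over the 12 libraries ran from 242 CPM for Cks1b to 4.36 CPM for Cenpf. That transcript was taken without regard to its type and can be longer than the main mRNA, so the order is approximate. Cks2 (124 CPM per kilobase), Cdc20 (109), Top2a (96.5) and Ccnb2 (90.2) followed Cks1b. The long kinetochore genes Cenpe (5.25) and Cenpf and the motor gene Kif20b (5.47) stood at the end. In every library each of the 48 genes had a measurable level, so that no difference below rests on a gene at 0.

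Loss of both caspases was asked with all 12 libraries by setting the mean of C and CE against the mean of WT and E. In this comparison 21 of the 48 genes fell and none rose, where 11.8% of all genes tested fell and 9.26% rose. The genes that fell were Ube2c, Birc5, Cks1b, Cenpa, Ccnb2, Cks2, Mad2l1, Cdk1, Ccnb1, Nusap1, Tacc3, Kif2c, Cdca3, Nuf2, Cdca8, Tpx2, Ccna2, Nek2, Ckap2, Aurkb and Ckap2l. The largest falls, of Ube2c and Birc5, were 1.5-fold (log2 -0.58, SE 0.09, adjusted p = 0.00272 for Ube2c; log2 -0.58, SE 0.09, adjusted p = 0.00294 for Birc5), and the smallest was that of Aurkb (log2 -0.17, SE 0.06, adjusted p = 0.0452). Over the 48 genes the median log2 difference was -0.27 and 46 were below 0, beside a median of 0.00 over all genes with 50.0% below 0. At an unadjusted p under 0.05 there were 29 members, against 35.3% of all genes. In 11 genes all 6 libraries with the caspase label lay below all 6 without it (4.63% of all genes), and in none did they lie above (3.45%). These were Ube2c, Birc5, Cks1b, Cenpa, Ccnb2, Cks2, Cdk1, Tacc3, Kif2c, Cdca3 and Cdca8. In each of the 12 fits that left out 1 library, 15 of the 21 passed. The exceptions, with the number of those fits in which they passed, were Tpx2 (8), Ccna2 (6), Nek2 (3), Ckap2 (3), Aurkb (2) and Ckap2l (1). Without WT4 the count was 34, and without WT4 and CE3 it was also 34. Without WT2 it was 15 with a median of -0.17, and without CE3 it was 15 with a median of -0.19. Over all genes 4622 passed without WT4 and CE3, against 3042 in the main fit.

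Sex could not be separated from the caspase label by much. With a covariate for Y-linked transcripts, in which CE3 alone carries the caspase label without Y-linked RNA, none of the 48 genes passed in edgeR, 36 had an unadjusted p under 0.05, and the smallest adjusted p was 0.178. All 48 were below 0 in that fit, with a median of -0.57, and the median SE rose from 0.092 to 0.177. The Y-linked term is set there by CE3 against CE1 and CE2 alone. The lower median therefore rests on CE3, the lowest library for 34 members, and does not measure a caspase difference freed of sex. Of all genes tested, 2 passed under that covariate, against 3042 without it. Without C1 and C3 together no member passed (19 at an unadjusted p under 0.05, smallest adjusted p 0.0891), and the median was -0.26.

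**Figure D2:**
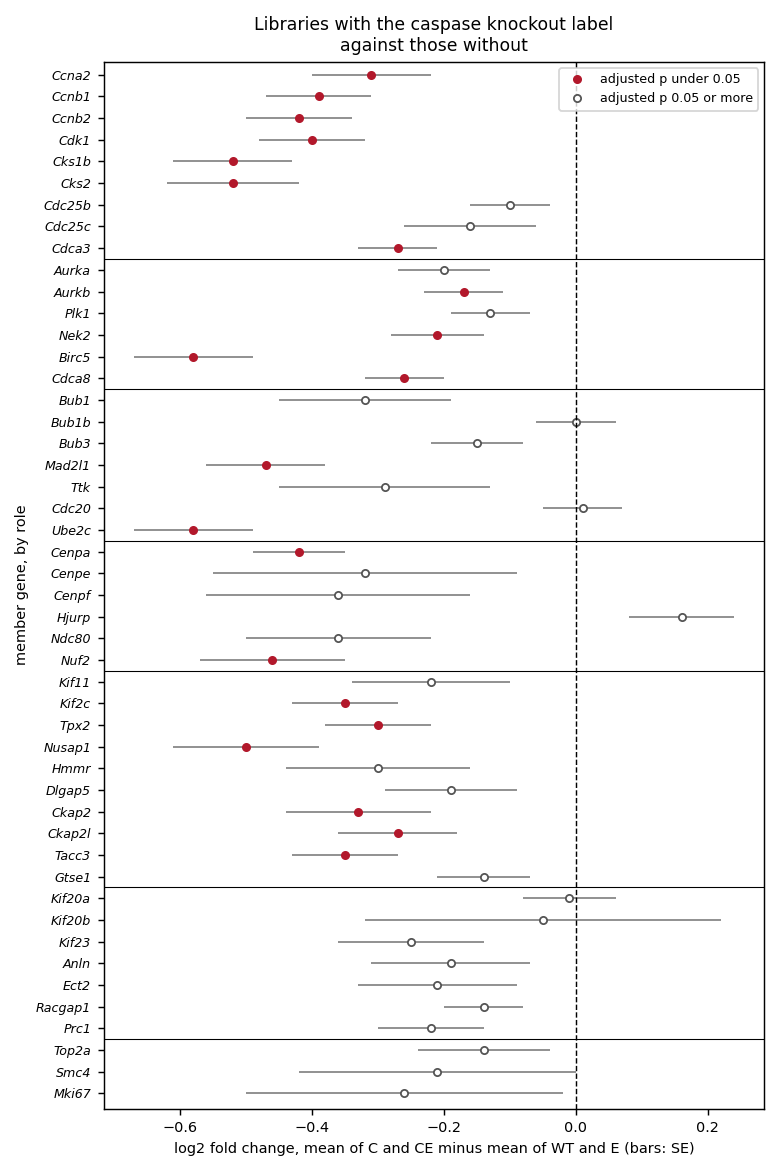
Log2 difference of each of the 48 genes between the mean of C and CE and the mean of WT and E (points) with its standard error (bars), ordered by role with lines between the roles; filled points passed the test at an adjusted p under 0.05. The points run from -0.58 for Ube2c and Birc5 to 0.16 for Hjurp, and 46 of 48 lie below 0.

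Other transcripts moved with the same label. Of 13 immediate early and stress genes, whose RNA rises within minutes of cell handling, 11 rose in C and CE (median log2 0.97). Hspa1a, a heat shock gene, rose most (log2 4.13, SE 0.41, adjusted p = 0.000146), and Fos was at 3410 to 3630 CPM in C and 2850 to 3820 CPM in CE, against 1110 to 2840 CPM in WT and 1370 to 1810 CPM in E. The summed level of the 13 was 15600 to 16700 CPM in C, 14500 to 17700 CPM in CE, 6380 to 8230 CPM in E and 5700 to 14100 CPM in WT, with WT4 the highest wild-type library. Of 9 basophil, eosinophil and mast cell genes, 6 fell, among them Prg2 (log2 -1.98, SE 0.37, adjusted p = 0.00429), and their summed level was 72.8 to 76.7 CPM in CE, 96.7 to 142 CPM in C, 94.6 to 291 CPM in E and 170 to 264 CPM in WT. None of the 9 was below 1 CPM in every library. Of 12 stem cell genes, 4 rose, among them Fgd5, Procr and Hlf, and none fell, and of 8 multipotent and myeloid progenitor genes 2 fell (Prtn3 and Ctsg). Of the other lineages, 3 of 7 T and NK cell genes, 2 of 11 erythroid, 2 of 11 neutrophil and macrophage and 1 of 7 megakaryocyte genes fell, and 1 of 10 B lineage genes rose. The summed level of the erythroid genes was 439 to 710 CPM in WT, 387 to 579 CPM in E, 441 to 484 CPM in C and 322 to 448 CPM in CE, and that of the T and NK cell genes was 211 to 286, 158 to 220, 219 to 253 and 196 to 226 CPM in the same order. The part of these transcripts in the mitotic result was not tested.

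Cyclins, Cdk1 and its activators held the most members that fell, 7 of 9. Ccnb1 (gene 268697, chromosome 13, 100778739 to 100786486, mm10), whose product cyclin B1 takes Cdk1 into mitosis, was at 109, 90.6 and 76.4 CPM (WT2, WT3, WT4), 87.9, 90.1 and 87.0 (E1, E2, E3), 78.5, 79.3 and 75.4 (C1, C2, C3) and 65.0, 63.5 and 53.2 (CE1, CE2, CE3). All CE libraries lay below every library of the other 3 groups, and C overlapped with WT through WT4. Values here and below are in the order of the library numbers. It fell by 1.31-fold with the caspase label (log2 -0.39, SE 0.08, adjusted p = 0.00686). Ccnb2 (gene 12442, chromosome 9, 70407689 to 70421554), the second mitotic cyclin, was at 176, 148 and 135 CPM for WT, 169, 157 and 164 for E, 132, 125 and 117 for C, and 123, 111 and 99.7 for CE. Both groups with the label lay below both without it, and the difference was 1.34-fold (log2 -0.42, SE 0.08, adjusted p = 0.0038). RefSeq lists pseudogene copies of these cyclins, and the treatment of reads shared with copies is not stated in the sources at hand.

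Cdk1 (gene 12534, chromosome 10, 69335146 to 69352912), the kinase itself, was at 244, 203 and 192 CPM for WT, 225, 202 and 183 for E, 172, 176 and 159 for C, and 158, 148 and 137 for CE. Its CE and C libraries all lay below those of WT and E, and it fell by 1.32-fold (log2 -0.40, SE 0.08, adjusted p = 0.00493). The cyclin A gene Ccna2 (gene 12428, chromosome 3, 36564865 to 36573038), which acts from S phase into early mitosis, was at 224, 201 and 150.0 CPM for WT, 202, 217 and 184 for E, 165, 174 and 167 for C, and 155, 160.4 and 128 for CE. WT4 lay below every C library here, so that the groups overlapped, and the fall was smaller (log2 -0.31, SE 0.09, adjusted p = 0.0282). Cks1b and Cks2 encode the small subunits that bind Cdk1 and help it to act on its substrates. Cks1b (gene 54124, chromosome 3, 89415472 to 89418291) was at 304, 227 and 233 CPM for WT, 269, 209.7 and 208 for E, 171, 191 and 169.7 for C, and 168, 145 and 167 for CE, and its lowest library without the label lay above its highest with it (log2 -0.52, SE 0.09, adjusted p = 0.00354). Cks2 fell likewise (log2 -0.52, SE 0.10, adjusted p = 0.00421), from 108 ± 26.0 CPM in WT and 94.3 ± 7.54 in E to 77.7 ± 5.31 in C and 63.6 ± 5.38 in CE (SD, n = 3 mice each). The seventh gene, Cdca3, a trigger of mitotic entry, fell less (log2 -0.27, SE 0.06, adjusted p = 0.0116). The phosphatases that switch Cdk1 on did not pass: Cdc25b was at log2 -0.10, SE 0.06, and Cdc25c at log2 -0.16, SE 0.10.

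**Figure D3:**
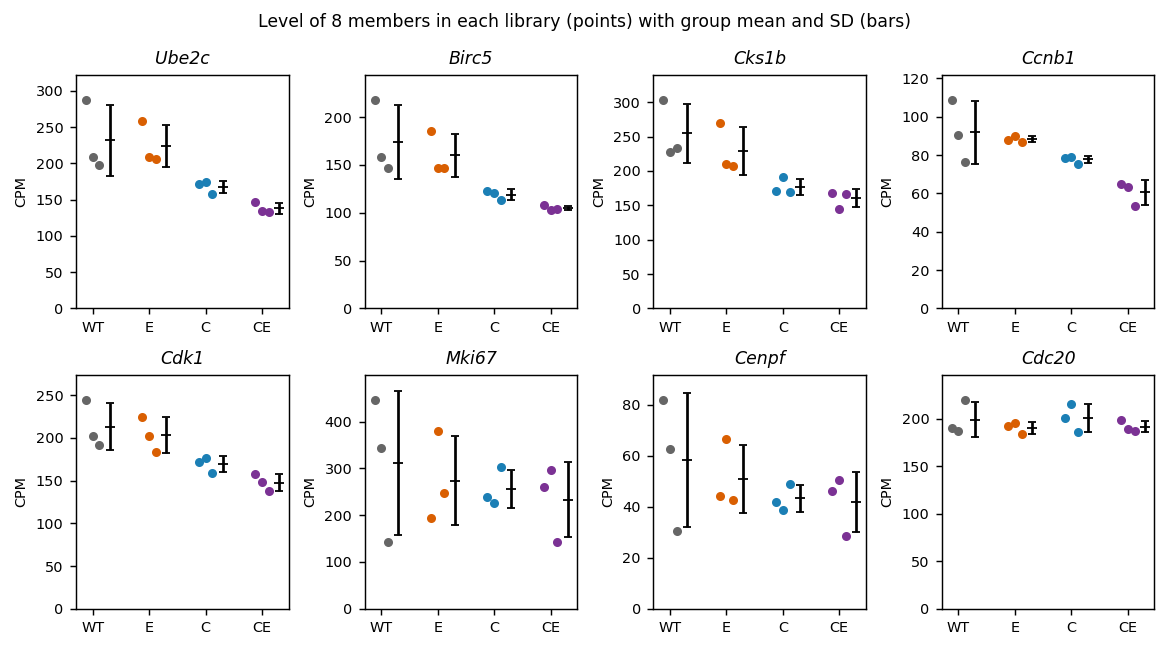
Level in CPM (linear axes from 0) of 8 members in each library (points, by group) with the group mean and SD (bars). Ube2c, Birc5, Cks1b and Cdk1 have every C and CE point below every WT and E point, Mki67 and Cenpf spread widely within WT, E and CE, and Cdc20 is level across the groups.

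Among the mitotic kinases and chromosomal passengers 4 of 6 fell. Birc5 (gene 11799, chromosome 11, 117849237 to 117855743) encodes survivin, the passenger protein that brings Aurora B to centromeres, and was at 218, 158 and 146 CPM for WT, 185, 147 and 147 for E, 123, 121 and 113 for C, and 108, 103 and 104 for CE. The CE libraries were nearly equal to each other, and none of the libraries with the label reached any without it. The difference of 1.49-fold shared the first place with that of Ube2c. Aurkb (gene 20877, chromosome 11, 69045624 to 69051664), the kinase of the passenger complex, was at 175, 149 and 157 CPM for WT, 162, 164 and 163 for E, 149.6, 154 and 149.6 for C, and 136, 138 and 134 for CE. It fell by much less than its partner (log2 -0.17, SE 0.06, adjusted p = 0.0452), and C overlapped with WT through WT3. Cdca8 (borealin), another subunit of the complex, fell by 1.2-fold (log2 -0.26, SE 0.06, adjusted p = 0.0132), and the centrosome kinase Nek2 by 1.16-fold (log2 -0.21, SE 0.07, adjusted p = 0.0391).

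Neither of the other mitotic kinases passed. Aurka (gene 20878, chromosome 2, 172356190 to 172370886), which matures centrosomes, was at 112, 90.0 and 95.3 CPM for WT, 91.9, 88.7 and 90.1 for E, 92.8, 93.9 and 80.8 for C, and 82.6, 71.2 and 73.5 for CE. CE lay below every WT and E library while C overlapped with all 3 other groups, with a log2 difference of -0.20 (adjusted p = 0.0565). Plk1 (gene 18817, chromosome 7, 122159435 to 122169884), polo-like kinase, was at 137, 117 and 120.5 CPM for WT, 128, 121 and 115 for E, 122, 125 and 109.9 for C, and 107, 106 and 109 for CE. CE was the lowest group by a small margin, with log2 -0.13, SE 0.06 (adjusted p = 0.169).

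Of 7 spindle checkpoint and APC/C genes 2 fell. Ube2c (gene 68612, chromosome 2, 164769929 to 164772902), the ubiquitin-conjugating enzyme that starts chains on APC/C substrates, was at 288, 209 and 197 CPM (WT2, WT3, WT4), 258, 209 and 207 (E1, E2, E3), 171, 174 and 158 (C1, C2, C3) and 146, 134 and 134 (CE1, CE2, CE3). The highest library with the label, C2, lay below the lowest without it, and group means were 232 ± 49.2 CPM for WT, 224 ± 29.0 for E, 168 ± 8.50 for C and 138 ± 7.17 for CE (SD, n = 3 mice each). Mad2l1 (gene 56150, chromosome 6, 66535221 to 66541107), the checkpoint protein that holds back Cdc20, was at 124, 107 and 82.3 CPM for WT, 114, 111 and 111 for E, 83.4, 85.6 and 78.4 for C, and 79.6, 77.6 and 65.4 for CE. WT4 fell into the range of C, and the other WT and E libraries lay above every C and CE library (log2 -0.47, SE 0.09, adjusted p = 0.00429).

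Cdc20 (gene 107995, chromosome 4, 118432901 to 118437343), the APC/C activator and target of Mad2, did not pass in any of the 7 comparisons. It was at 190.2, 187 and 219.6 CPM (WT2, WT3, WT4), 192, 195 and 183 (E1, E2, E3), 201, 216 and 186 (C1, C2, C3) and 198, 189 and 187 (CE1, CE2, CE3). These levels span from the lowest E library to the highest WT library with all groups overlapping, and the caspase difference was log2 0.01, SE 0.06. Bub1b, which encodes the checkpoint kinase-like protein BubR1, was as level (log2 -0.00, SE 0.06), while Bub3 was at log2 -0.15, SE 0.07 and did not pass. Bub1 (gene 12235, chromosome 2, 127800197 to 127831859), the kinetochore kinase, was at 72.3, 57.3 and 38.7 CPM for WT, 50.7, 59.1 and 56.3 for E, 45.7, 44.9 and 47.7 for C, and 43.5, 52.5 and 33.7 for CE. WT2 was its highest and CE3 its lowest library, and the difference of -0.32 (SE 0.13) did not pass, nor did that of Ttk (log2 -0.29, SE 0.16), the Mps1 kinase.

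Of 6 centromere and kinetochore genes 2 fell. Cenpa (gene 12615, chromosome 5, 30666877 to 30674837) encodes the histone H3 variant that marks centromeres, and it was at 219, 165 and 177 CPM for WT, 184, 170.1 and 181 for E, 149.5, 143 and 133 for C, and 138, 125 and 133 for CE. Its libraries with and without the label did not overlap (log2 -0.42, SE 0.07, adjusted p = 0.00354). Hjurp, the chaperone that loads that histone, lay in the other direction and did not pass (log2 0.16, SE 0.08, adjusted p = 0.186). It was the highest log2 difference of the 48, and every C library lay above every WT library in it. Nuf2, an arm of the Ndc80 complex that grips microtubules, fell (log2 -0.46, SE 0.11, adjusted p = 0.0129), and its partner Ndc80 did not pass (log2 -0.36, SE 0.14, adjusted p = 0.0759).

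Cenpe and Cenpf did not pass either, and both spread widely within their groups. Cenpe (gene 229841, chromosome 3, 135212563 to 135273540), a kinetochore motor, was at 70.2, 55.0 and 21.8 CPM for WT, 34.4, 55.8 and 39.3 for E, 36.9, 35.5 and 41.4 for C, and 40.0, 45.6 and 22.7 for CE. WT4, E1 and CE3 were each the lowest of their group. Cenpf (gene 108000, chromosome 1, 189640606 to 189688107), a large kinetochore protein, was at 81.8, 62.7 and 30.3 CPM for WT, 44.0, 66.4 and 42.5 for E, 42.0, 38.8 and 48.9 for C, and 46.3, 50.6 and 28.4 for CE. WT2 and WT4 differed by more than any pair of group means, and the SE of the caspase difference was 0.20, against 0.07 for Cenpa. The differences were -0.32 for Cenpe and -0.36 for Cenpf.

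Spindle motors and microtubule proteins included 6 of 10 that fell. These were Nusap1 (log2 -0.50, SE 0.11, adjusted p = 0.00798), Tacc3 (log2 -0.35, SE 0.08, adjusted p = 0.00903), Kif2c (log2 -0.35, SE 0.08, adjusted p = 0.0105), Tpx2, Ckap2 (log2 -0.33, SE 0.11, adjusted p = 0.0425) and Ckap2l (log2 -0.27, SE 0.09, adjusted p = 0.0479). Kif2c depolymerizes microtubules at kinetochores, and Nusap1, Tacc3 and Ckap2 bind and stabilize spindle microtubules. Tpx2 (gene 72119, chromosome 2, 152847964 to 152895321), which activates Aurora A on the spindle, was at 188, 155 and 129.9 CPM for WT, 162, 172 and 162 for E, 137, 142 and 132 for C, and 132, 132 and 110.4 for CE. WT4 again lay in the range of CE, and the fall was 1.23-fold (log2 -0.30, SE 0.08, adjusted p = 0.021).

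Kif11 (gene 16551, chromosome 19, 37376382 to 37421863), the motor that pushes spindle poles apart, was at 183, 169 and 117 CPM for WT, 146, 181 and 158 for E, 144, 138 and 146 for C, and 141, 154 and 97.5 for CE. CE3 and WT4 were its lowest libraries, and it did not pass (log2 -0.22, SE 0.12, adjusted p = 0.2). Hmmr (gene 15366, chromosome 11, 40701388 to 40733464), a spindle assembly factor, was at 57.7, 47.2 and 32.8 CPM for WT, 39.7, 56.2 and 49.0 for E, 41.6, 38.3 and 41.3 for C, and 39.7, 42.5 and 27.4 for CE. WT4 and CE3 were low there too, and the difference did not pass (log2 -0.30, SE 0.14, adjusted p = 0.134). Dlgap5 and Gtse1 stood at -0.19 and -0.14 and did not pass.

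None of the 7 genes of the central spindle and cytokinesis passed, and all 7 were below 0. Prc1 (gene 233406, chromosome 7, 80294445 to 80316259), which bundles midzone microtubules, was at 115, 104 and 87.3 CPM for WT, 109, 100.5 and 112 for E, 95.8, 95.7 and 93.1 for C, and 86.1, 97.1 and 72.7 for CE. CE lay below E without overlap, C overlapped with WT, and the caspase difference was -0.22 (SE 0.08, adjusted p = 0.0723). Racgap1 (gene 26934, chromosome 15, 99620496 to 99651656), a subunit of centralspindlin, was at 179.8, 167 and 158 CPM for WT, 163, 169 and 159.7 for E, 157, 159.5 and 154 for C, and 144, 149 and 139 for CE. CE lay below every library of the other groups, and the difference did not pass (log2 -0.14, SE 0.06, adjusted p = 0.0852). Kif23, the motor of centralspindlin, was at -0.25, Ect2, the RhoA exchange factor, at -0.21, Anln at -0.19, Kif20b at -0.05 and Kif20a at -0.01.

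The 3 genes of mitotic chromosome structure did not pass. Top2a (gene 21973, chromosome 11, 98992947 to 99024199), which untangles sister DNA, had the highest CPM of the list and was at 578, 589 and 427 CPM for WT, 507, 554 and 514 for E, 476, 498 and 504 for C, and 495, 534 and 368 for CE. CE3 and WT4 stood below the rest, with log2 -0.14, SE 0.10. Smc4 (gene 70099, chromosome 3, 69004738 to 69034623), a condensin subunit, was at 179.8, 157 and 67.3 CPM for WT, 90.9, 160.3 and 116 for E, 116, 106 and 121 for C, and 126, 129.7 and 68.5 for CE. WT4 and CE3 were its lowest libraries and nearly equal, and the caspase difference was log2 -0.21, SE 0.21. Mki67 (gene 17345, chromosome 7, 135689784 to 135716450), the usual marker of cycling cells, which coats mitotic chromosomes, was at 446, 344 and 143 CPM (WT2, WT3, WT4), 195, 379 and 247 (E1, E2, E3), 238, 226 and 303 (C1, C2, C3) and 261, 297 and 142 (CE1, CE2, CE3). Its lowest libraries were WT4 and CE3, its highest was WT2, and all groups overlapped (log2 -0.26, SE 0.24).

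In Emu-myc mice alone, loss of both caspases was asked by CE against E. Of the 48 genes 6 fell and none rose, where 1.11% of all genes tested fell and 0.477% rose. At an unadjusted p under 0.05 there were 26 members, against 22.6% of all genes. Ube2c fell by 1.63-fold (log2 -0.70, SE 0.13, adjusted p = 0.0398), Mad2l1 by 1.51-fold (log2 -0.60, SE 0.13, adjusted p = 0.0398), and Birc5 by 1.52-fold (log2 -0.61, SE 0.13, adjusted p = 0.0405). The cyclin genes followed, Ccnb2 with log2 -0.55, SE 0.11, adjusted p = 0.0398 and Ccnb1 with log2 -0.54, SE 0.12, adjusted p = 0.0403, and Cdk1 passed narrowly (log2 -0.46, SE 0.11, adjusted p = 0.0497). Below the threshold stood Cenpa, Cks2 and Nusap1, each with an adjusted p of 0.0526. In 31 of 48 genes all 3 CE libraries lay below all 3 E libraries, against 15.1% of all genes, and in none did they lie above (14.8%). The median log2 difference was -0.31 beside 0.00 for all genes, with 45 members below 0 against 49.6% of all genes. The highest value was that of Hjurp (log2 0.07, SE 0.12, adjusted p = 0.778).

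The 6 calls sat at the edge of the threshold, at adjusted p values of 0.0398 to 0.0497. None passed in edgeR with the covariate for Y-linked transcripts (34 at an unadjusted p under 0.05) or without C1 and C3 together (22). No member passed when any of E1, E2, E3, C1, C2, C3, CE1, CE2 or CE3 was left out, while 17 passed without WT2, 5 without WT3 and 21 without WT4. Counts over all genes are not given for these fits. CE3 lay below every E library in 46 of 48 genes (32.3% of all genes), and CE1 and CE2 both did in 31 (20.6%). Without CE3 the median was -0.22, with 43 genes below 0 and 19 at an unadjusted p under 0.05.

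On the background without the transgene, C against WT gave no member past the threshold in edgeR, where 0.359% of all genes rose and 0.297% fell. An unadjusted p under 0.05 was reached by 15 members (23.2% of all genes). In DESeq2 5 members passed, beside 1195 of all genes, and in limma voom 12, beside 1773. The smallest p belonged to Birc5 (log2 -0.55, SE 0.13, adjusted p = 0.0549), Cks1b (log2 -0.52, SE 0.13, adjusted p = 0.0569), Cenpa (log2 -0.40, SE 0.10, adjusted p = 0.0614) and Ube2c (log2 -0.46, SE 0.13, adjusted p = 0.0716). Birc5 had the lowest log2 difference and Hjurp the highest (log2 0.25, SE 0.12, adjusted p = 0.213). The 3 C libraries lay below the 3 WT libraries in 11 of 48 genes (13.9% of all genes) and above in Hjurp and Kif20a (12.5% of all genes). The median of the 48 was -0.20, and 42 were below 0 (51.8% of all genes).

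This comparison depended on which wild-type library was kept. Without WT2 the median was -0.04, with 33 genes below 0 and 5 at an unadjusted p under 0.05 (smallest adjusted p 0.258). WT4 lay below WT2 and WT3 in 34 of 48 genes (37.2% of all genes), and without it the median was -0.35. Without WT4, 17 members passed, without WT3 6 and without E1 2, and none with any other library left out. Counts over all genes are not given for these fits. Without WT4 and CE3 together 27 members passed with a median of -0.37. Over all genes 2932 passed there, against 95 in the main fit, so the rise was not particular to the members. In 23 genes all C and CE libraries lay below WT2, WT3 and every E library (9.29% of all genes).

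The transgene made no difference that passed for any of the 48 genes. In E against WT none passed in edgeR, DESeq2 or limma voom, and none had an unadjusted p under 0.05 (6.58% of all genes), where 0.0484% of all genes rose and 0.0345% fell. The median was -0.02, with 25 of 48 below 0 (50.6% of all genes), and its direction depended on the library left out. Without WT2 it was 0.14 with 6 below 0, and without WT4 it was -0.10 with 41 below 0. The smallest p were those of Cdca8 (log2 -0.17, SE 0.09), Kif20a (log2 0.15, SE 0.10), Cks2 (log2 -0.19, SE 0.14) and Aurka (log2 -0.14, SE 0.10), with adjusted p values of 0.768 to 0.784. Kif20a was the highest of the 48 and Cks2 the lowest. No member had groups without overlap, against 4.46% of all genes with E above WT and 3.56% with E below.

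Without caspases, CE against C placed 47 of 48 members below 0 with a median of -0.13, but none passed in edgeR, DESeq2 or limma voom (4 at an unadjusted p under 0.05, against 5.14% of all genes). Of all genes tested, 0.0622% rose, 0.145% fell and 47.8% were below 0. The 4 were Ccnb1 (log2 -0.36, SE 0.12, adjusted p = 0.583), Aurka (log2 -0.23, SE 0.10, adjusted p = 0.882), Nek2 (log2 -0.21, SE 0.10, adjusted p = 0.942) and Ube2c (log2 -0.28, SE 0.13, adjusted p = 0.969). Kif20b was the highest (0.01). All CE libraries lay below all C libraries in 18 genes, Ccnb1, Ube2c, Cdk1, Birc5 and Plk1 among them, against 7.86% of all genes, and above them in none (7.03%). The tally of 47 below 0 rested on CE3: without CE3, 29 of 48 were below 0 with a median of -0.07. Without CE3 and WT4 the values were 29 and -0.06.

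The test of whether the transgene effect differed between the backgrounds passed for no member in edgeR, DESeq2 or limma voom, and 0.0% of all genes passed it in edgeR. Kif20a was the 1 member at an unadjusted p under 0.05, which 2.11% of all genes reached (log2 -0.33, SE 0.15, adjusted p = 1), followed by Ccnb1 (log2 -0.30, SE 0.16), Ccnb2 (log2 -0.26, SE 0.15) and Cdc25b (log2 -0.20, SE 0.12). The highest was Kif20b (log2 0.17, SE 0.54), and 41 were below 0 (49.0% of all genes). Without WT4 and CE3 it was 21, with a median of 0.01 in place of -0.11, and with the replicate number as a block it was 29. Averaged over both backgrounds, the transgene also passed for none in the 3 tools, where 0.187% of all genes rose and 0.352% fell in edgeR. At an unadjusted p under 0.05 there were 5 members (8.98% of all genes), the median was -0.07, and 40 were below 0 (50.1%). Without WT2 that number was 25 and without CE3 it was 26, each with a median of -0.01. In no member did the 6 libraries with the transgene all lie above (0.435% of all genes) or all below (0.311%) the other 6. The smallest p there were those of Aurka (log2 -0.19, SE 0.07, adjusted p = 0.441), Ccnb1 (log2 -0.21, SE 0.08, adjusted p = 0.45), Cks2 (log2 -0.24, SE 0.10, adjusted p = 0.457) and Cdca8 (log2 -0.15, SE 0.06, adjusted p = 0.479), and Ect2 was the highest (0.05). The 4 groups are shared between these comparisons, so their values are not independent of each other.

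The spread inside the groups ran in part with transcript length. In WT4 the 5 members furthest below the mean log2 level of WT2 and WT3 were Kif20b (5564 bases, -1.53), Cenpe (7910 bases, -1.51), Mki67 (10061 bases, -1.46), Smc4 (4316 bases, -1.32) and Cenpf (11130 bases, -1.24). The same genes stood low in CE3 against CE1 and CE2, at -1.22, -0.91, -0.97, -0.90 and -0.77, and in E1 against E2 and E3, at -0.94, -0.44, -0.65, -0.59 and -0.27. The other member listed over 6000 bases, Mad2l1 (7557 bases), stood at -0.49 in WT4, -0.26 in CE3 and 0.04 in E1. That length exceeds the span of its RefSeq gene (66535221 to 66541107), so its place among the long members is uncertain. The 4 members over 6000 bases had a median of -1.35 in WT4, -0.84 in CE3 and -0.36 in E1, where all 1864 tested genes of that length had -0.15, -0.18 and -0.19. The 12 members of 4000 to 6000 bases had -0.42, -0.47 and -0.15, beside -0.05, -0.05 and -0.07 for all genes. The 25 members of 2000 to 4000 bases had -0.33, -0.30 and 0.02, beside 0.06, 0.05 and 0.04. The 7 members of up to 2000 bases had -0.07, -0.06 and 0.07, beside 0.12, 0.14 and 0.18 for all genes. The shortest and the longest bin hold few members. Length did not order every member: in WT4 Ttk (2871 bases) stood at -0.84, Bub3 (4015 bases) at 0.07 and Hjurp (4878 bases) at 0.19. GC content varied among these genes too. It was 43.0% for Ttk, 47.6% for Bub3 and 50.2% for Hjurp. Among the 5 lowest in WT4 it was 39.4% for Kif20b, 40.2% for Smc4, 42.9% for Cenpe, 43.3% for Cenpf and 46.6% for Mki67. Mad2l1, at 40.1%, stood above those 5 in WT4. The parts of length and GC content were not tested apart.

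**Figure D4:**
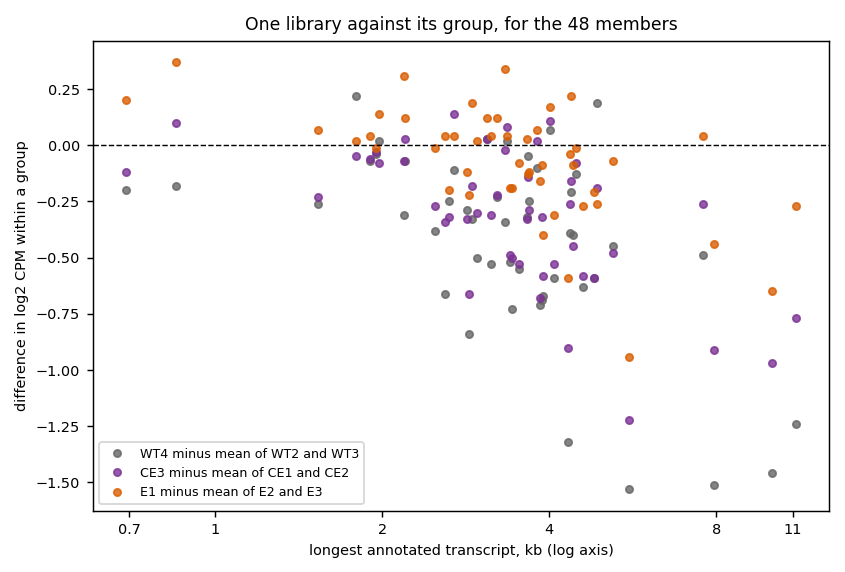
Log2 level of each of the 48 genes in WT4, CE3 and E1 relative to the mean of the other 2 libraries of its group (vertical axis), against the length of its longest annotated transcript in kilobases (horizontal, log scale). The long members Mki67, Cenpe and Cenpf lie between -1.24 and -1.51 in WT4 and between -0.27 and -0.65 in E1. Mad2l1, whose plotted length exceeds the span of its RefSeq gene, lies at -0.49 and 0.04.

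Of the 24 shorter members 15 fell with the caspase label and of the 24 longer ones 6, with medians of -0.28 and -0.22. This split also rests on the longest annotated transcript of any type. After trends of log2 CPM on length and GC content were removed in each library, 17 members passed, 16 of them among the 21, and the medians were -0.20 for the shorter and -0.15 for the longer. In the same setting no member passed in CE against E (25 at an unadjusted p under 0.05, smallest adjusted p 0.056). Over all genes 1789 passed there for the caspase label and 22 in CE against E.

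Beside the 48, 8 lists hold 113 other genes of mitosis, all tested. With the caspase label 25 of them fell and 3 rose, beside the 11.8% and 9.26% of all genes, and their median was -0.12. Other kinetochore proteins held 10 of the falls among 24 genes, with 23 of 24 below 0. These were Spc25 (log2 -0.68, SE 0.11, adjusted p = 0.00271), the partner of Spc24 in the Ndc80 complex, Cenpw (log2 -0.63, SE 0.10, adjusted p = 0.00265) and Cenph (log2 -0.62, SE 0.10, adjusted p = 0.00301) of the inner kinetochore, Cenpk, Cenpq, Cenpp, Cenpn, and the Ska complex genes Ska1, Ska2 and Ska3. Their log2 differences ran from -0.68 to -0.26.

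Of 19 APC/C subunits and regulators 5 fell, Anapc13 (log2 -0.48, SE 0.09, adjusted p = 0.00412), Pttg1 (securin, log2 -0.42, SE 0.10, adjusted p = 0.0103), Anapc4, Anapc15 and Anapc16. Of 10 regulators of mitotic entry 2 fell, Ccnh (log2 -0.44, SE 0.09, adjusted p = 0.00485), the cyclin of the CDK-activating kinase, and Arpp19 (log2 -0.42, SE 0.07, adjusted p = 0.00373), an inhibitor of the phosphatase that opposes Cdk1. Haus1 (log2 -0.50, SE 0.08, adjusted p = 0.00299), Fam83d and Kif22 fell among 18 other motors and spindle proteins. Cep55 and Pbk fell and Cit, the citron kinase of the midbody, rose (log2 0.58, SE 0.11, adjusted p = 0.00553) among 8 other cytokinesis genes. Sgo1, the guardian of centromeric cohesion, fell and Mad1l1 rose (log2 0.32, SE 0.10, adjusted p = 0.0299) among 9 checkpoint and passenger genes, and the condensin gene Ncaph fell among 11 (log2 -0.22, SE 0.07, adjusted p = 0.0494).

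The 14 regulators of these promoters moved little. Mybl2, which encodes B-MYB, rose (log2 0.25, SE 0.07, adjusted p = 0.018), Nfyb, a subunit of the factor that binds CCAAT boxes, fell (log2 -0.27, SE 0.07, adjusted p = 0.0208), and the other 12 did not pass. Foxm1 was at log2 0.04, SE 0.06, E2f4 at log2 -0.05, SE 0.06 and Lin54, the CHR-binding subunit, at log2 -0.08, SE 0.12. The list had a median of -0.04.

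In CE against E 5 of the 113 fell, Spc25 (log2 -0.81, SE 0.15, adjusted p = 0.0398), Cenpw (log2 -0.63, SE 0.14, adjusted p = 0.0403), Haus1 (log2 -0.51, SE 0.12, adjusted p = 0.0476), Ccnh (log2 -0.52, SE 0.12, adjusted p = 0.0482) and Arpp19 (log2 -0.45, SE 0.11, adjusted p = 0.0488). Cenpw alone fell when C was set against WT (log2 -0.63, SE 0.14, adjusted p = 0.0499). In each list with no gene past the threshold, the smallest p in CE against E was that of Pbk (0.0504 adjusted), Anapc13 (0.0792), Mybl2 (0.103), Sgo1 (0.142) and Ncaph (0.181). In C against WT it was that of Haus1 (0.0525), Anapc13 (0.0525), Cit (0.0579), Arpp19 (0.0667), Rbl2 (0.141), Mad1l1 (0.194) and Pds5a (0.217). None of the 113 passed for the transgene in E against WT, where the smallest p per list belonged to Anapc15, Spc24, Mybl2, Pkmyt1, Haus8, Cdca5, Mad1l1 and Depdc1b, with adjusted p values from 0.747 to 0.804. In CE against C these were Mnat1, Kif18b, Incenp, Pbk, Tfdp1, Anapc16, Spc25 and Cdca5, with adjusted p values from 0.942 to 0.999.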

How the data were processed

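RNA of sorted hematopoietic stem cells was sequenced in 12 libraries, 3 mice per genotype. The authors deposited raw counts per gene, with no normalization found in the values. Reads were aligned with STAR 2.5.3 to mm10, per the submitters' processing notes. No source used here gives the counter, annotation, strandedness or filters. Gene numbers were matched to symbols and positions of RefSeq (GRCm38.p6), which covered 25275 of 27179. The other 1904 held 2.445% of the counts in WT2 and 0.546 to 1.083% in the remaining libraries, and stayed in the tests.

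All 12 libraries were fitted together with edgeR 4.0.16 (R 4.3.3): TMM factors, filterByExpr by group, group means, quasi-likelihood F tests (two-sided), and Benjamini-Hochberg adjustment over 14473 genes at 0.05. The biological coefficient of variation was 0.139. There were 7 contrasts. CPM use effective library sizes. Member levels are log2 CPM with a prior count of 2. The fit was tested on simulated data. Libraries held 24529611 to 34065910 counts. The series names 3 mice per genotype as replicates.

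The members and gene lists were chosen with earlier results of these data known. Named are 22 members picked for their textbook role, every member past the threshold, the 4 with the smallest p and the extremes of each contrast, and of each other list the genes past the threshold or the 1 with the smallest p. Marker genes, Foxm1, E2f4, Lin54 and the remaining members were named after their values were seen. Replicate numbers are shared between groups, and the labels do not say whether they pair the mice. Deviations from the group mean gave r of -0.244 to 0.166 for libraries of the same number and -0.259 to 0.282 for others. With 3 libraries a group, these values cannot exclude a pairing, and the main fit used none. Alternatives were RLE factors, no filter (at least 1 count), a stricter filter (1 CPM in 6 libraries), DESeq2 1.42.0, limma 3.58.1 voom with quality weights, only the groups compared, a replicate block, a covariate for Y-linked transcripts (sum over 1 CPM), and removal of each library, or of C1 and C3. Removal of WT4 and CE3, and of length and GC trends (13225 genes with a length), were chosen after seeing the data. Protein motifs were not analysed here.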

Additional observations from a re-analysis of the deposited data

How the results depend on the processing

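No value past the threshold changed sign under any alternative, and every member call in every setting was a lower level. For E against WT, CE against C, the difference between them and the transgene over both backgrounds, no member passed under any alternative run. For C against WT (0 passed) the count was 10 with no filter, 5 with DESeq2, 12 with limma voom, 19 with the replicate block and 27 without WT4 and CE3, and it ran from 0 to 17 when single libraries were left out. For CE against E (6) it was 15 with no filter, 10 with the stricter filter, 18 with DESeq2, 19 with limma voom, 14 with only the groups compared, 19 with the replicate block and 11 without WT4 and CE3. It was 0 with the Y-linked covariate, without C1 and C3, and with length and GC trends removed, and ran from 0 to 21 over single libraries. For the caspase label over both transgene states (21) it was 34 with the replicate block and without WT4 and CE3, 0 with the Y-linked covariate and without C1 and C3, and 15 to 34 over single libraries. With RLE factors, no filter, DESeq2 and limma voom it was 19, 27, 21 and 28. With the Y-linked covariate the medians moved by more than the spread of the member level (SD 0.168), to -0.53 in C against WT, -0.60 in CE against E and -0.57 for the caspase label. In these fits the Y-linked term is set by CE3 against CE1 and CE2 alone, so the moved medians rest on CE3. The part of sex was not tested. The replicate block has WT4 as the only library of its number and so sets that library aside. Leaving out C1 and C3 leaves 1 library in C, taken to vary as the other groups do. Of all genes tested, 95 passed in C against WT and 229 in CE against E, against 1195 and 1182 with DESeq2, so the number of calls at the threshold depends on the tool. With the replicate block these counts were 2045 and 1475, and without WT4 and CE3 they were 2932 and 635. For the caspase label 3042 of all genes passed, against 4430 with the replicate block and 4622 without WT4 and CE3. The rises in member counts thus went with rises over all genes. Depth limits none of the member values, as no member was under 14.4 CPM in any library.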

Other observations

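Of 20 genes of DNA replication, 5 fell with the caspase label, Gins1 (log2 -0.33, SE 0.08, adjusted p = 0.0133), Rfc4, Pcna (log2 -0.25, SE 0.07, adjusted p = 0.0244), Tyms and Rfc3, and 2 subunits of the replicative helicase rose, Mcm2 (log2 0.40, SE 0.10, adjusted p = 0.013) and Mcm5 (log2 0.29, SE 0.10, adjusted p = 0.0409). Their median was -0.09, with 13 of 20 below 0, and 11.8% of all genes fell. None passed in CE against E, C against WT, CE against C or E against WT, where the smallest p belonged to Mcm2 (adjusted p = 0.0971), Gins1 (0.0886), Rrm2 (0.874) and Cdt1 (0.722). These values are from the edgeR fit of all 12 libraries.

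Of 8 CDK inhibitors and D cyclins, 2 rose with the caspase label and 1 fell. Cdkn1c (p57), an inhibitor known for its high level in quiescent stem cells, rose by 1.55-fold (log2 0.63, SE 0.16, adjusted p = 0.0165), and Ccnd2 (cyclin D2) by 1.23-fold (log2 0.30, SE 0.08, adjusted p = 0.0148). Cdkn2c (p18) fell by 1.37-fold (log2 -0.46, SE 0.07, adjusted p = 0.00271) and also fell with CE set against E (log2 -0.55, SE 0.10, adjusted p = 0.0398). For the other comparisons the smallest p were those of Cdkn2c in C against WT (adjusted p = 0.0668), Ccnd1 in CE against C (0.587) and Cdkn1a in E against WT (0.572).

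Transcripts of B lineage cells fell with the transgene: 9 of 10 tested passed over both backgrounds, with a median of -2.03, and their summed level was 75.0 to 84.3 CPM in CE and 79.3 to 96.4 CPM in E, against 102 to 204 CPM in WT and 175 to 258 CPM in C. Erythroid genes, of which none passed among 11, had a median of -0.90 in that comparison, and Klf1, an erythroid transcription factor gene, was highest in WT2, at 55.3 CPM, the library in which 39 of the 48 mitotic genes were also highest. Their part in the mitotic levels was not tested.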
